A study of Mus musculus with 6 samples.

Results

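The genes described here run mitosis: 44 genes for cyclins and their kinases, the spindle checkpoint, spindle motors, kinetochores, condensin and the factor that helps transcribe them. The rule that chose them lists them by name and uses no measured value, though earlier results of these data were known when it was written. Of the 44, 43 were measured with exactly 1 symbol, among 18194 genes in all, and Ccnb1 had no value in the probe table used here. Where a gene had several probe sets, the brightest one over the 6 arrays stood for it. The RNA came from cultures of testis cells of male ICR mice aged 3 to 5 days and was measured on Affymetrix arrays, with 2 arrays for each of 3 kinds of cell. The kinds are mSSC, spermatogonial stem cells in a multipotent state, iSSC, in an intermediate state, and SSC, unipotent germ-line stem cells. The culture protocol is the same text for all 6 samples: clumps of passage 0 to 1 or 9 to 10 were put on mouse embryonic fibroblast feeders treated with mitomycin, which stops feeders from dividing. Colonies that became flat or resembled ES colonies stayed in GS medium or were moved to serum-free KSR-mES medium. The sources used here do not give the passage or medium of an array. Nothing in the labels shows that replicates were separate cultures, and the p-values cover the spread between arrays alone.

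Entry into mitosis is driven by the kinase Cdk1 bound to a B or A type cyclin, and exit by the anaphase-promoting complex, a ubiquitin ligase that marks cyclins for destruction. Between them the spindle checkpoint holds back anaphase until each kinetochore is attached to microtubules. Most of these genes are transcribed in G2 phase and mitosis, so their RNA is a customary measure of how many cells of a population are cycling. Testis stem cells and pluripotent cells both divide in culture, and pluripotent cells are known for their rapid cycle.

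The shared timing of these genes is known to depend on promoter elements close to the transcription start. One is the cell cycle genes homology region (CHR), to which the MuvB complex binds, at some stages of the cycle together with B-Myb, the product of Mybl2, and with Foxm1. The other is the CCAAT box of the factor NF-Y. RefSeq promoter windows of the mouse build GRCm38.p6, from 250 bases before to 50 bases after the start, were matched by symbol for 37 of the 44 genes. TTTGAA was searched for as the CHR and CCAAT as the NF-Y box, each on both strands, and 0 matches of the one overlapped the other. The CHR letters were found in 27 of the 37 windows (73.0%), against 18.1% of the 27025 genes in the table. CCAAT was found in 29 of them (78.4%), against 37.9%, and both in 24 (64.9%), against 7.12%. In 24 of the 37 genes a CHR match began within 50 bases of the start, a count for which no share over all genes was computed. Mybl2, Birc5, Nusap1, Mad2l1 and Nuf2 held neither.

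Windows are shown for Cdk1, Prc1, Hmmr, Ube2c and Mybl2, which were called higher in mSSC than in both other kinds, and for Top2a, called higher in mSSC than in iSSC. Each runs 5′ to 3′ from 110 bases before to 20 bases after the start, and capitals mark TTTGAA and CCAAT on either strand.
Cdk1, chr10:69352893-69353022, minus strand: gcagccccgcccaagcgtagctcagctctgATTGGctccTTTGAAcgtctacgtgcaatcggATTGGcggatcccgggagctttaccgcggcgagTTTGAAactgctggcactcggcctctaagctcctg
Prc1, chr7:80294341-80294470, plus strand: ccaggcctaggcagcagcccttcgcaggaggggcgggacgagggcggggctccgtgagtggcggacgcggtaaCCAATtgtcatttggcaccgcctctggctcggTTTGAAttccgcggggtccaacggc
Hmmr, chr11:40733418-40733547, minus strand: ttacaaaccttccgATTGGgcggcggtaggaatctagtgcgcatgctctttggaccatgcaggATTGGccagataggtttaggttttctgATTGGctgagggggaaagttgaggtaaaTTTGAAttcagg
Ube2c, chr2:164769819-164769948, plus strand: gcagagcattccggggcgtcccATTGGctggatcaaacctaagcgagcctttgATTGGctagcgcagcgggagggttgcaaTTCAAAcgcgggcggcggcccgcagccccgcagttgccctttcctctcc
Top2a, chr11:99024170-99024299, minus strand: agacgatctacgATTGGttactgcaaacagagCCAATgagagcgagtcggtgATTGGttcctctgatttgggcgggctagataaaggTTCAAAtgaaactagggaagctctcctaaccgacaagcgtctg
Mybl2, chr2:163054525-163054654, plus strand: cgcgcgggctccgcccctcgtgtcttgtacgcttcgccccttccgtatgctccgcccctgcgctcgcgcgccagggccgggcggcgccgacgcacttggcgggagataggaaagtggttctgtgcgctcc
A match is a description of the letters and does not show binding. The Mybl2 window had no capitals, whereas those of Cdk1, Prc1, Hmmr, Ube2c and Top2a each had a CHR match close to the start.

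**Figure D1:**
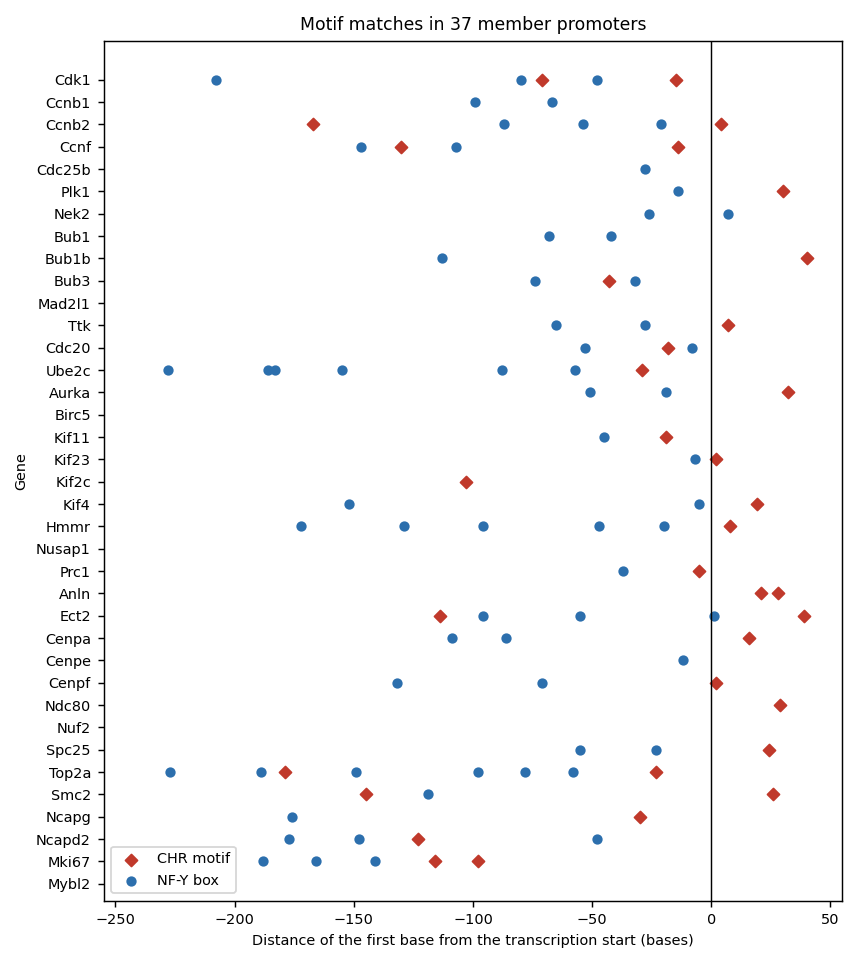
Matches of the CHR (red diamonds) and the NF-Y box (blue circles) in the promoter windows of 37 mitosis genes, by the distance of the first base of a match from the transcription start in bases. CHR matches lie within 50 bases of the start in 24 genes, with no share over all genes computed, and 5 genes show no match of either kind.

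The values are log2 signals, so that a difference of 1 is a 2-fold change. No gene of the set was near background: their values lay between 6.96 and 13.11, while the arrays' lower quartiles were 4.23 to 4.38. The median level of the 43 genes was 11.33 and 10.84 in mSSC arrays, 10.09 and 10.08 in iSSC arrays, and 9.77 and 10.02 in SSC arrays. The mean was highest in mSSC for 32 genes, in iSSC for 7 and in SSC for 4, and it was lowest in mSSC for 1 gene, in iSSC for 15 and in SSC for 27. The replicates were not equally close. The 2 arrays differed by more than 1 for 5 genes in mSSC, for 0 in iSSC and for 10 in SSC. Of the 43 genes 34 were lower in mSSC replicate 2 than in replicate 1, and 35 were lower in SSC replicate 1 than in replicate 2. In SSC replicate 1 the 3′ probe set of the transferrin receptor control was 2.55 brighter than its 5′ probe set, with 1.12 to 2.07 elsewhere, and that of pyruvate carboxylase 2.73 brighter, with 0.88 to 1.32 elsewhere. The part of this end difference in the values was not tested.

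**Figure D2:**
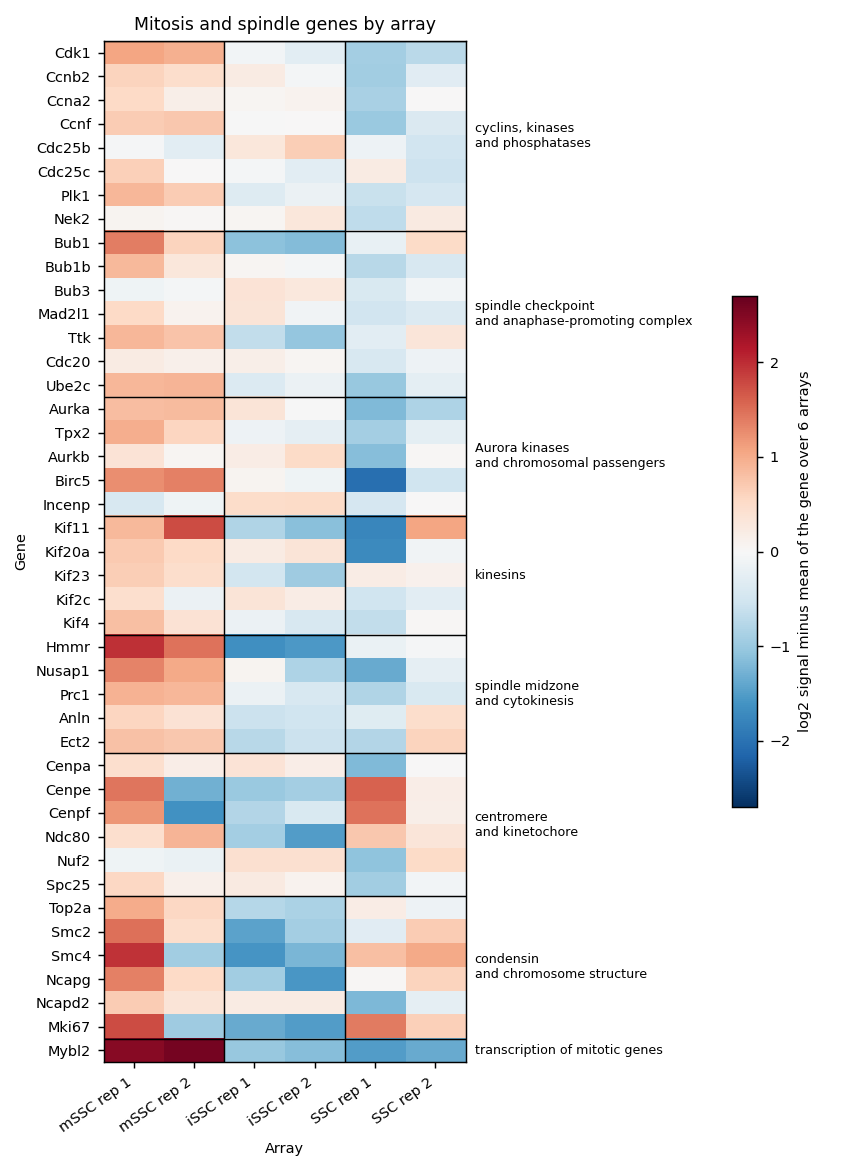
Log2 signal of each of 43 genes minus its mean over the 6 arrays (colour), with arrays in columns and genes in rows grouped by function. Mybl2 is the row with the strongest contrast between mSSC and the rest, and in the rows of Mki67, Smc4, Cenpe and Cenpf the 2 mSSC arrays differ by more than in any other row.

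Comparing mSSC with SSC asks how the multipotent state differs from the unipotent one. Of the 43 genes 13 rose in mSSC, 0 fell and 30 did not pass the test (limma, adjusted p under 0.05 over all genes). Over all genes 8.22% were called higher and 10.6% lower. The median difference of the 43 was 0.82, against 0.08 for all genes, and 38 of the 43 differences were positive. The 2 mSSC arrays were both above the 2 SSC arrays for 28 genes and both below for 0, against 32.3% and 26.3% of all genes. The genes that rose were Mybl2, Birc5, Nusap1, Aurka, Cdk1, Hmmr, Ube2c, Prc1, Ccnf, Tpx2, Plk1, Bub1b and Ccnb2. When each of the 6 arrays was left out in turn, 6 of them were called every time, namely Cdk1, Plk1, Aurka, Hmmr, Prc1 and Mybl2. The calls of Ccnf and Ube2c were lost without either mSSC array, and those of Bub1b and Tpx2 without SSC replicate 1, either iSSC array or mSSC replicate 1. The count of higher genes fell without SSC replicate 1 or either mSSC array, as did the calls over all genes, and rose without SSC replicate 2. The median was 0.45 without SSC replicate 1, 1.26 without SSC replicate 2, 0.60 without mSSC replicate 1 and 1.04 without mSSC replicate 2. Without mSSC replicate 1, 2 genes were called lower, Smc4 (-1.85 ± 0.29) and Mki67 (-1.98 ± 0.38).

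Markers of other cells moved between the same samples. The median log2 level of 14 macrophage markers was 5.25 and 5.43 in mSSC arrays, 9.33 and 8.73 in iSSC arrays, and 11.71 and 11.01 in SSC arrays, and 13 of the 14 were called lower in mSSC than in SSC. Lyz2, the lysozyme of macrophages, stood at 6.16 and 6.15 in mSSC arrays, 13.61 and 12.80 in iSSC arrays, and 14.27 and 14.16 in SSC arrays. Laptm5, the next brightest of these markers, stayed high, with 10.0 and 11.3 in mSSC, 10.3 and 9.4 in iSSC, and 11.4 and 11.3 in SSC. Fibroblast markers, 15 in number, had a median of 7.61 and 9.78 in mSSC arrays, 9.75 and 10.20 in iSSC arrays, and 12.49 and 12.01 in SSC arrays. Sertoli cell markers had medians of 6.00 and 5.99 in mSSC, 6.30 and 6.35 in iSSC, and 7.23 and 7.61 in SSC. Of the macrophage markers 2 and 5 lay below the lower quartile in mSSC arrays, and 0 of the macrophage, fibroblast and Sertoli markers did so in the other 4. Of 7 smooth muscle markers 4 were called lower in mSSC than in SSC, and of 7 endothelial markers 2 were called higher. Against the labels, 11 of 12 pluripotency markers were called higher and 9 of 13 germ line markers lower in mSSC than in SSC, while 2 germ line markers, Etv5 and Lin28a, named after their values were seen, were called higher (1.92 and 1.56). Of the pluripotency, germ line and endothelial markers 0 were called by limma between iSSC and SSC. In that comparison 6 of 14 macrophage and 3 of 11 Sertoli cell markers were called lower in iSSC. So were 1 of 15 fibroblast and 1 of 7 smooth muscle markers. In such bulk samples fewer cells of a type and less RNA per cell cannot be told apart. What the other cells contribute to the mitosis genes was not tested.

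Among cyclins, kinases and phosphatases 4 of 8 rose in mSSC against SSC, 0 fell, and all 8 differences were positive. Cdk1, the kinase that drives entry into mitosis, had 12.05 and 11.96 in mSSC arrays, against 10.08 and 10.27 in SSC arrays. The groups were far apart, and the difference was 1.83 ± 0.21 (SE, n = 2 arrays per group, limma adjusted p = 0.0038), or 3.55-fold. Plk1, a kinase of spindle assembly and mitotic exit, had 11.13 and 10.94 in mSSC arrays, against 9.64 and 9.80 in SSC arrays (1.31 ± 0.21, adjusted p = 0.010). Ccnf, a cyclin that serves as the substrate receptor of a ubiquitin ligase, had 10.54 and 10.58 in mSSC, against 8.86 and 9.46 in SSC (1.40 ± 0.26, adjusted p = 0.015). Ccnb2, a B type partner of Cdk1, rose by less, with 12.37 and 12.26 in mSSC, against 10.84 and 11.47 in SSC (1.16 ± 0.27, adjusted p = 0.033). It was not called in 5 of the 6 fits that left out 1 array, the exception being the fit without SSC replicate 2. Ccna2, the A type cyclin of S phase and early mitosis, was at 0.79 ± 0.33 (adjusted p = 0.16), with SSC replicates at 10.76 and 11.65. Nek2, a kinase of centrosome separation, and the Cdk1-activating phosphatases Cdc25b and Cdc25c differed by 0.27, 0.16 and 0.50, each less than 2 SE, and their groups overlapped.

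In iSSC the same cyclins and kinases lay between the other kinds in several cases. Cdk1 had 10.92 and 10.71 in iSSC arrays, above both SSC arrays but not past the test (0.64 ± 0.21, adjusted p = 0.21). It was called higher in mSSC than in iSSC (1.19 ± 0.21, adjusted p = 0.014), as was Plk1, with 9.89 and 10.08 in iSSC (1.05 ± 0.21, adjusted p = 0.021). Both calls were lost when either iSSC array or mSSC replicate 1 was left out. Cdc25b was brightest in iSSC, at 8.13 and 7.88 in mSSC, 8.47 and 8.82 in iSSC, and 8.03 and 7.65 in SSC, with neither difference past the test (adjusted p = 0.14 for mSSC against iSSC and 0.19 for iSSC against SSC).

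**Figure D3:**
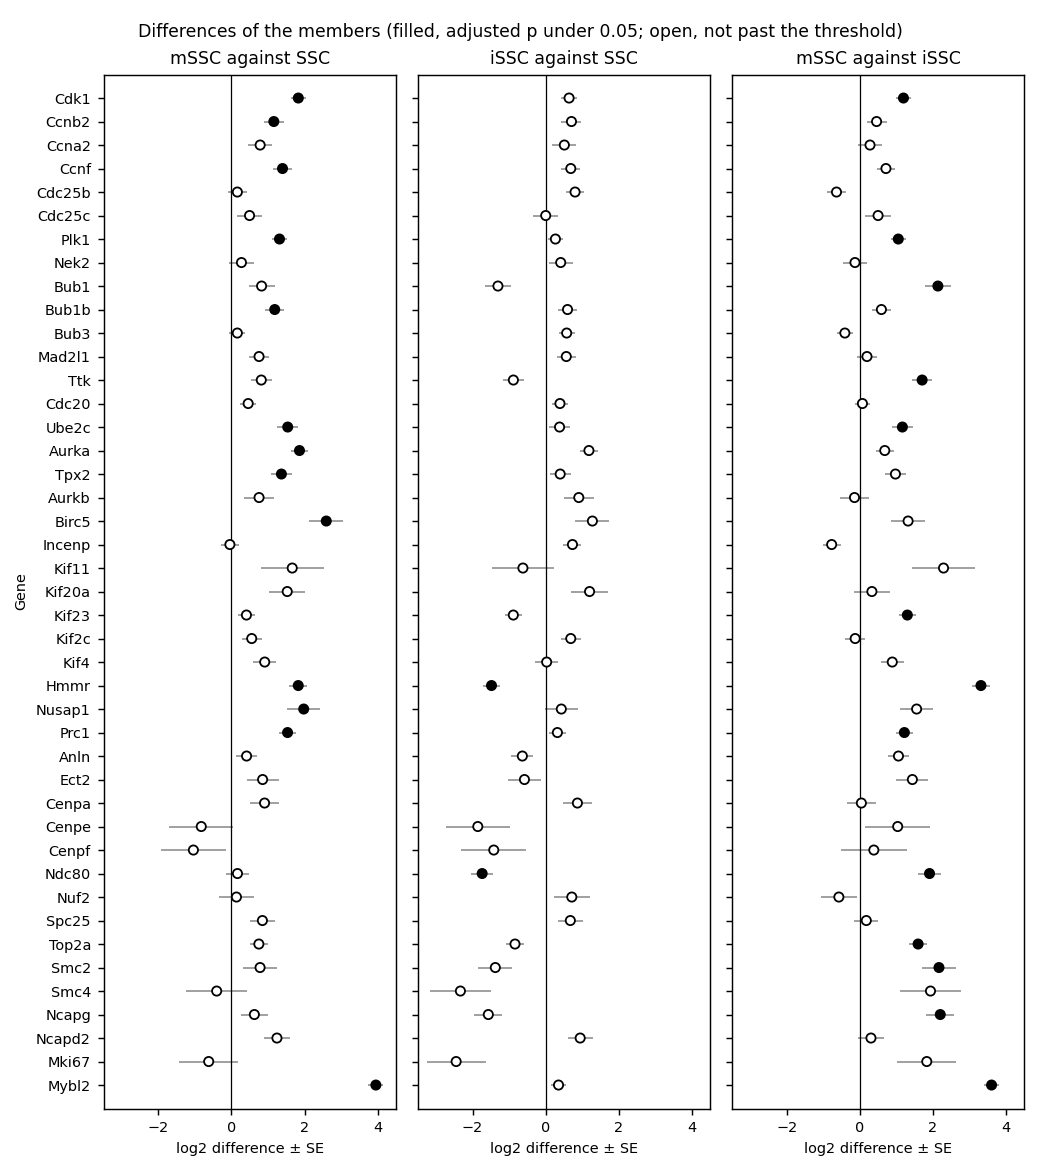
Log2 differences of 43 genes (rows) in the 3 comparisons, with bars for the SE and filled points for adjusted p under 0.05 in limma. Filled points lie right of 0 in both comparisons of mSSC, 13 in each, and the 2 filled points of iSSC against SSC, Hmmr and Ndc80, lie left of 0.

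Of 7 genes of the checkpoint and the anaphase-promoting complex 2 rose in mSSC against SSC, and 3 were higher in mSSC than in iSSC. Ube2c, the ubiquitin-conjugating enzyme of the complex, had 12.42 and 12.44 in mSSC arrays, 11.17 and 11.37 in iSSC arrays, and 10.51 and 11.27 in SSC arrays. The mSSC arrays were above all 4 others, by 1.54 ± 0.29 against SSC (adjusted p = 0.017) and by 1.16 ± 0.29 against iSSC (adjusted p = 0.042). Bub1b, which encodes the checkpoint protein BubR1, had 11.94 and 11.36 in mSSC, against 10.31 and 10.63 in SSC (1.18 ± 0.27, adjusted p = 0.028). Of its 3 probe sets 2 had this sign, and with probe sets averaged the difference was 0.66 (adjusted p = 0.081).

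Bub1 and Ttk, the kinases that recruit and activate the checkpoint at unattached kinetochores, had another order of groups. Bub1 had 12.64 and 11.85 in mSSC arrays, 10.14 and 10.08 in iSSC arrays, and 11.06 and 11.77 in SSC arrays. It was lowest in iSSC, with a difference of 2.13 ± 0.35 for mSSC against iSSC (adjusted p = 0.011), while iSSC against SSC was at -1.31 ± 0.35 (adjusted p = 0.14). Ttk had 10.52 and 10.39 in mSSC, 8.94 and 8.56 in iSSC, and 9.33 and 9.94 in SSC, and was likewise called between mSSC and iSSC (1.70 ± 0.28, adjusted p = 0.011), a call lost with probe sets averaged (1.17, adjusted p = 0.055). Cdc20, an activator of the anaphase-promoting complex, had the highest signal of this group and small differences, with 12.91 and 12.84 in mSSC, 12.86 and 12.76 in iSSC, and 12.26 and 12.57 in SSC. Mad2l1 and Bub3, both checkpoint proteins, were at 0.76 ± 0.27 (adjusted p = 0.10) and 0.16 ± 0.22 (adjusted p = 0.66) in mSSC against SSC.

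Aurora kinases and chromosomal passengers had 3 of 5 genes higher in mSSC than in SSC. Aurka, the Aurora kinase of the spindle poles, had 11.44 and 11.47 in mSSC arrays, 10.95 and 10.59 in iSSC arrays, and 9.40 and 9.78 in SSC arrays. The 3 kinds did not overlap, and the difference between mSSC and SSC was 1.86 ± 0.24 (adjusted p = 0.0054), or 3.64-fold. Averaged with its other probe set, near background at 3.87 to 4.38, the difference was 1.10 (adjusted p = 0.015). Between iSSC and SSC the difference of the main probe set was 1.18 ± 0.24 (adjusted p = 0.073), the smallest adjusted p of a positive difference among the 43 genes in that comparison. Tpx2, which activates Aurka on the spindle, had 11.49 and 11.11 in mSSC, against 9.61 and 10.26 in SSC (1.37 ± 0.29, adjusted p = 0.023).

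Birc5, which encodes the passenger subunit survivin, had 11.86 and 11.97 in mSSC arrays, 10.69 and 10.50 in iSSC arrays, and 8.58 and 10.07 in SSC arrays. Its difference between mSSC and SSC, 2.59 ± 0.46 (adjusted p = 0.014), was the second largest of the set. It was 1.85 without SSC replicate 1, the lower array, and the call was lost without mSSC replicate 2 (adjusted p = 0.052). Aurkb, the kinase of the passenger complex, stood at 9.63 and 9.32 in mSSC, against 8.12 and 9.32 in SSC, and did not pass (adjusted p = 0.25). Incenp, the scaffold of that complex, was at -0.04 ± 0.25 between mSSC and SSC, and was brightest in iSSC, with 12.69 and 12.70, against 11.73 and 12.19 in SSC (0.73 ± 0.25, adjusted p = 0.22). For Incenp 4 of 5 probe sets had the sign of this iSSC difference.

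**Figure D4:**
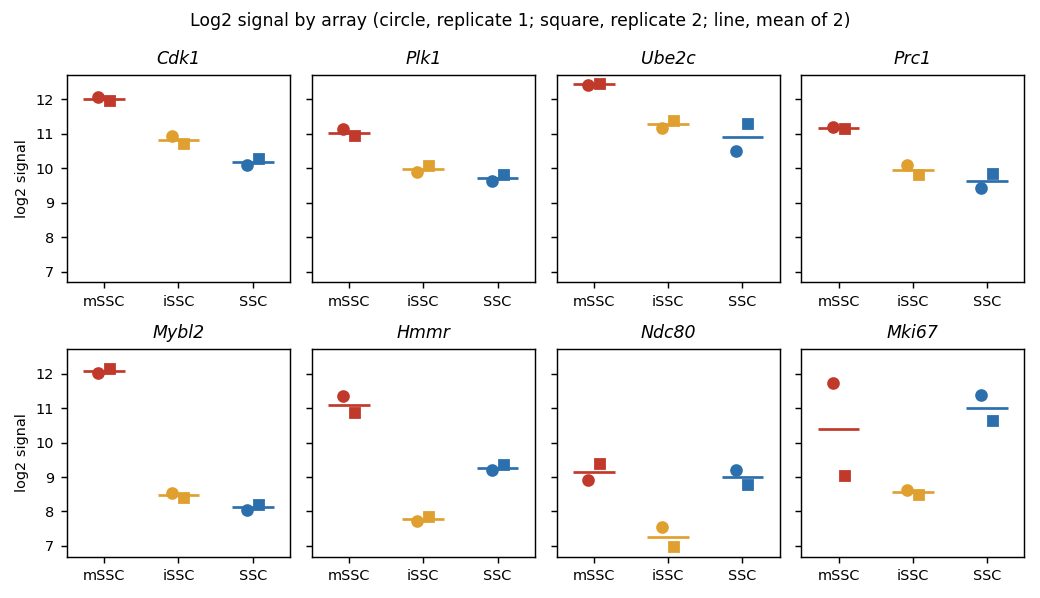
Log2 signal of 8 genes in each array (vertical axis) for mSSC, iSSC and SSC, with circles for replicate 1, squares for replicate 2 and lines for the mean of 2. Cdk1, Plk1, Ube2c, Prc1 and Mybl2 are highest in mSSC, Hmmr and Ndc80 are lowest in iSSC, and the 2 mSSC arrays of Mki67 lie 2.71 apart.

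None of the 5 kinesins, motors that build and elongate the spindle, passed the test between mSSC and SSC, with 0 called by limma in either direction. Their differences were all positive, from 0.41 to 1.66. Kif11, the motor that pushes spindle poles apart, had 9.83 and 10.70 in mSSC arrays, 8.14 and 7.82 in iSSC arrays, and 7.18 and 10.02 in SSC arrays. Its SSC replicates were 2.84 apart, so that a difference of 1.66 ± 0.86 did not pass (adjusted p = 0.24). Kif20a, a motor of cytokinesis, was also low in SSC replicate 1, with 11.01 and 10.84 in mSSC, against 8.59 and 10.21 in SSC (1.53 ± 0.50, adjusted p = 0.082). Kif23, a motor of the central spindle, had 10.57 and 10.38 in mSSC, against 9.41 and 8.95 in iSSC (1.30 ± 0.24, adjusted p = 0.016), while its SSC arrays stood at 10.11 and 10.02. With probe sets averaged the Kif23 difference was 0.74 and the call was lost (adjusted p = 0.076). That average includes a probe set at 3.34 to 3.71, below the lower quartile of each array. Kif4, a motor of chromosome arms, and Kif2c, a microtubule depolymerase, were at 0.91 ± 0.31 (adjusted p = 0.092) and 0.55 ± 0.27 (adjusted p = 0.21) in mSSC against SSC.

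Of 5 genes grouped under the spindle midzone and cytokinesis 3 rose in mSSC against SSC. The grouping is loose, as it takes in the general microtubule proteins Hmmr and Nusap1 and leaves the motors Kif20a and Kif23 with the kinesins. Among groups with several genes this one had the highest median difference (1.54), and whether the groups differ was not tested. Hmmr, a microtubule-binding protein of the spindle, showed the widest span over the kinds apart from Mybl2. It had 11.34 and 10.84 in mSSC arrays, 7.73 and 7.83 in iSSC arrays, and 9.19 and 9.34 in SSC arrays. The 3 kinds were well separated and iSSC was lowest. Hmmr rose by 1.83 ± 0.24 in mSSC against SSC (adjusted p = 0.0059) and by 3.31 ± 0.24, or 9.93-fold, in mSSC against iSSC (adjusted p = 0.0013). It fell by 1.48 in iSSC against SSC (SE 0.24, adjusted p = 0.042). All 5 of its probe sets had these signs in each comparison. The call between iSSC and SSC was lost with the replicate number as a block (adjusted p = 0.071), with arrays centred (adjusted p = 0.057) and with probe sets averaged (-1.22, adjusted p = 0.16). Those settings called 148, 261 and 29 of all genes, against 381 in the main fit. It was also lost without either array of iSSC or of SSC, with differences from -1.56 to -1.41. No gene of the whole table was called without SSC replicate 1 or either iSSC array, so those fits cannot test this call.

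Prc1, which bundles the antiparallel microtubules of the midzone, had 11.19 and 11.15 in mSSC arrays, 10.09 and 9.81 in iSSC arrays, and 9.43 and 9.83 in SSC arrays. The mSSC arrays were above the rest, by 1.54 ± 0.24 against SSC (adjusted p = 0.0089) and by 1.22 ± 0.24 against iSSC (adjusted p = 0.018). Nusap1, a microtubule stabiliser, had 11.32 and 11.00 in mSSC, against 8.63 and 9.73 in SSC (1.98 ± 0.45, adjusted p = 0.030), a call lost with the replicate block (adjusted p = 0.054) and without SSC replicate 1 or either mSSC array. Anln, a scaffold of the contractile ring, and Ect2, which activates RhoA there, were at 0.41 ± 0.30 (adjusted p = 0.39) and 0.85 ± 0.44 (adjusted p = 0.24). Ect2 in SSC replicate 2, at 9.78, was close to the mSSC arrays, at 9.97 and 9.89, while SSC replicate 1 stood at 8.38.

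The 6 genes of the centromere and kinetochore had no call between mSSC and SSC and a median difference of 0.15, near the 0.08 of all genes. Ndc80, a subunit of the complex that binds microtubules at the kinetochore, had 8.93 and 9.38 in mSSC arrays, 7.54 and 6.96 in iSSC arrays, and 9.20 and 8.78 in SSC arrays. mSSC and SSC overlapped, and iSSC was below both. Ndc80 was called between mSSC and iSSC (1.90 ± 0.30, adjusted p = 0.010) and between iSSC and SSC (-1.74 ± 0.30, adjusted p = 0.049). The second call stood at the threshold. It was lost in each setting with all arrays of both kinds but that of the brighter genes alone (adjusted p from 0.052 to 0.082). It was also lost without each of the 6 arrays in turn. The fits without SSC replicate 1 or either iSSC array called no gene of the whole table, so they cannot test it. Nuf2, its partner subunit, was at 0.71 ± 0.49 in iSSC against SSC (adjusted p = 0.53), with 9.84 and 9.83 in iSSC and 8.32 and 9.92 in SSC, and Spc25, another subunit, at 0.67 ± 0.33 (adjusted p = 0.38). The difference of Ndc80 in iSSC against SSC thus had the opposite sign to those of Nuf2 and Spc25, and the difference between genes was not tested.

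Cenpa, the histone H3 variant that marks centromeres, had 11.79 and 11.53 in mSSC arrays, 11.72 and 11.52 in iSSC arrays, and 10.15 and 11.35 in SSC arrays. Only SSC replicate 1 stood clearly below the rest. Cenpe, a kinetochore motor, had 10.06 and 7.33 in mSSC arrays, 7.63 and 7.70 in iSSC arrays, and 10.23 and 8.82 in SSC arrays. Cenpf, a large protein of the outer kinetochore, had 10.74 and 7.93 in mSSC, 8.76 and 9.15 in iSSC, and 11.03 and 9.72 in SSC. The mSSC arrays differed by 2.73 for Cenpe and by 2.81 for Cenpf, and no comparison passed (adjusted p from 0.36 to 0.57 for Cenpe and 0.47 to 0.84 for Cenpf).

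Of 6 condensin and chromosome structure genes 3 rose in mSSC against iSSC, with a median difference of 1.88, and 0 were called by limma in mSSC against SSC, with a median of 0.69 and 4 at positive differences; whether the comparisons differ was not tested. Top2a, the topoisomerase that untangles sister chromatids, had 13.11 and 12.66 in mSSC arrays, 11.35 and 11.25 in iSSC arrays, and 12.31 and 11.96 in SSC arrays. The difference was 1.59 ± 0.25 against iSSC (adjusted p = 0.010; 0.88 with probe sets averaged, adjusted p = 0.027) and 0.75 ± 0.25 against SSC (adjusted p = 0.090). Smc2, a core ATPase of condensin, had 11.60 and 10.58 in mSSC, 8.67 and 9.19 in iSSC, and 9.81 and 10.80 in SSC (2.16 ± 0.47 for mSSC against iSSC, adjusted p = 0.025). Ncapg, a subunit of condensin I, had 10.72 and 9.90 in mSSC, against 8.43 and 7.81 in iSSC (2.20 ± 0.38, adjusted p = 0.013). The calls of Smc2 and Ncapg against iSSC were lost with probe sets averaged (adjusted p = 0.059 for each).

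Smc4, the other ATPase of condensin, and Mki67, the proliferation antigen that coats mitotic chromosomes, had unequal mSSC arrays. Smc4 had 12.25 and 9.34 in mSSC arrays, 8.68 and 9.05 in iSSC arrays, and 11.09 and 11.31 in SSC arrays, and its 3 probe sets all had mSSC replicate 1 above replicate 2. Mki67 had 11.74 and 9.03 in mSSC arrays, 8.63 and 8.49 in iSSC arrays, and 11.38 and 10.63 in SSC arrays. In both genes mSSC replicate 1 lay with SSC and mSSC replicate 2 nearer to iSSC, and no comparison over all arrays passed (adjusted p from 0.18 to 0.78). Ncapd2, another subunit of condensin I, was at 1.24 ± 0.34 in mSSC against SSC (adjusted p = 0.052), with SSC replicates at 8.81 and 9.77. Its iSSC arrays stood at 10.23 and 10.24, above both SSC arrays, while the iSSC means of the 5 other genes of this group were below their SSC means.

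Mybl2, which encodes B-Myb, showed the largest difference of the set. It had 12.00 and 12.14 in mSSC arrays, 8.54 and 8.40 in iSSC arrays, and 8.05 and 8.18 in SSC arrays. The mSSC arrays were far above the other 4, which lay within 0.49 of each other. The difference was 3.95 ± 0.20 against SSC (15.5-fold, adjusted p = 0.00052) and 3.60 ± 0.20 against iSSC (12.1-fold, adjusted p = 0.00082), and both of its probe sets had this sign. Both calls were kept whichever array was left out. Among 23 other regulators of mitotic transcription 3 rose and 3 fell in mSSC against SSC. Over all genes 8.22% were called higher and 10.6% lower, so the regulators as a list were near those shares. Myb, a relative of Mybl2, had 7.97 and 8.30 in mSSC arrays, 4.67 and 4.32 in iSSC arrays, and 4.25 and 4.47 in SSC arrays, near background in iSSC and SSC (adjusted p = 0.00079 against SSC). Nfyb, a subunit of NF-Y, rose by 1.67 ± 0.37 in mSSC against SSC (adjusted p = 0.028). Rb1 and Rbl2, pocket proteins that restrain E2F targets, fell by 1.13 and 1.06 (adjusted p = 0.020 and 0.025). Lin37, a subunit of MuvB, fell by 0.85 against SSC (adjusted p = 0.042) and by 1.09 against iSSC (adjusted p = 0.020). Foxm1, named after its values were seen, had 7.69 and 7.38 in mSSC arrays, 8.27 and 8.49 in iSSC arrays, and 8.69 and 8.23 in SSC arrays (-0.93 ± 0.25 against SSC, adjusted p = 0.051). Its mSSC arrays were below the other 4. The median difference over the 23 regulators was 0.25.

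Comparing iSSC with SSC asks how far the intermediate state differs from the unipotent one. Of the 43 genes 0 rose and 2 fell, Hmmr and Ndc80, by limma at an adjusted p under 0.05. Over all genes 0.225% were called higher and 1.87% lower. The median difference was 0.39, against 0.10 for all genes, and 28 of the 43 differences were positive. Both iSSC arrays were above both SSC arrays for 21 genes and below them for 13, against 32.3% and 17.7% of all genes. The differences ran both ways, with Aurka, Birc5 and Kif20a at the upper end and Mki67, Smc4 and Cenpe at the lower. None of these named genes was called. Without SSC replicate 1 the median was 0.07, below the 0.17 of all genes in that fit. Without SSC replicate 2 the median was 0.64, against 0.02 for all genes in that fit.

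The 15 genes with an iSSC mean below the SSC mean had a longer median span than the other 28. The spans of the 15 in the RefSeq table of GRCm38.p6, introns included, lay between 26.7 and 61.0 kb, with a median of 32.1 kb. The other 28 had spans from 2.97 to 101 kb, with a median of 14.3 kb. Spearman's rho between gene span and the difference in iSSC against SSC was -0.56 over the 43 genes, as a description across genes that share arrays and are not independent, and -0.21 over the 18033 genes with a span. For mSSC against SSC it was -0.12 in both. Gene span was looked at after the values were seen, and what links it to the differences was not tested. With a trend on gene span removed from each array, the median was 0.26. Hmmr and Ndc80 were then at -1.56 (adjusted p = 0.039) and -1.82 (adjusted p = 0.053). The trend was fitted over all genes, where rho was weaker than over the 43, so this fit cannot tell what span contributes to their differences.

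**Figure D5:**
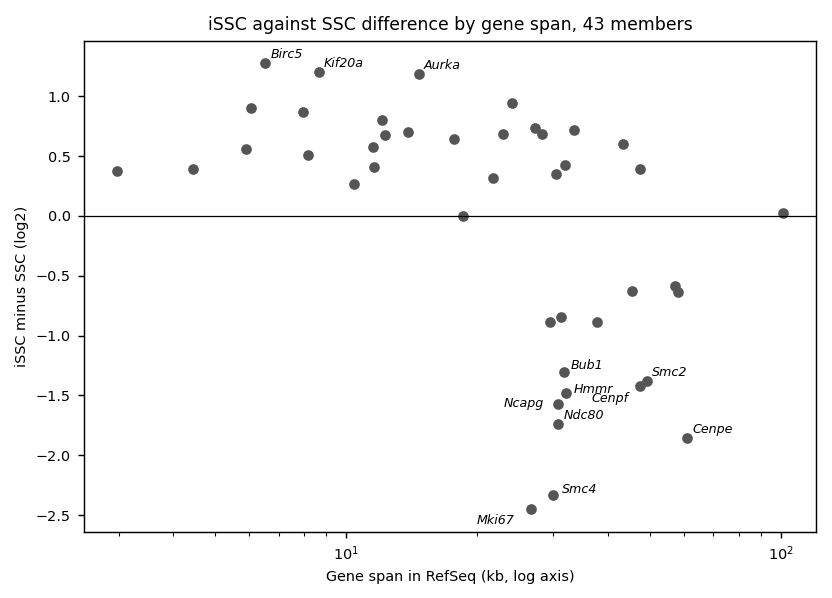
Difference in iSSC against SSC (log2, vertical axis) of 43 genes by their span in RefSeq (kb, log axis), with genes below -1.2 or above 1 named. All points clearly below 0 have spans of 26.7 kb or more, and genes of shorter span lie at or above 0.

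Comparing mSSC with iSSC asks how the multipotent state differs from the intermediate one. Of the 43 genes 13 rose, 0 fell and 30 did not pass, against 7.53% of all genes called higher and 9.6% lower. The median difference was 0.97, against -0.01 for all genes, and 36 of 43 were positive. Both mSSC arrays were above both iSSC arrays for 30 genes, and below them for 4, Cdc25b, Bub3, Incenp and Nuf2, against 29.6% and 33.2% of all genes. The 13 genes were Hmmr, Mybl2, Ncapg, Smc2, Bub1, Ndc80, Ttk, Top2a, Kif23, Prc1, Cdk1, Ube2c and Plk1. Of these, 6 had also risen against SSC, and the comparisons share the mSSC arrays. Those 6 were Cdk1, Plk1, Ube2c, Hmmr, Prc1 and Mybl2. The count fell without either iSSC array or mSSC replicate 1, and so did the calls over all genes. A fit on the 4 arrays of these kinds called 20 of the 43, and 3724 of all genes, against 3117 in the main fit. Over the fits without 1 array the median ran from 0.67 to 1.15. Hmmr and Mybl2 were called in all 6 fits that left out 1 array. Ndc80 was lost without iSSC replicate 2 alone, Bub1, Ttk, Top2a and Ncapg without either iSSC array, and Kif23 and Smc2 also without mSSC replicate 1. Ube2c and Prc1 were lost without any array of mSSC or iSSC.

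Other mitosis genes, outside the set, were measured for 93 symbols. Of these 22 rose and 3 fell in mSSC against SSC by limma, where 8.22% of all genes rose and 10.6% fell. In iSSC against SSC 0 rose and 2 fell, against 0.225% and 1.87% of all genes, so the falls were near that share. In mSSC against iSSC 18 rose and 5 fell, against 7.53% and 9.6% of all genes. The medians of the 93 were 0.53, 0.25 and 0.36. Spc24, the fourth subunit of the Ndc80 complex, had 10.09 and 10.10 in mSSC arrays, against 8.24 and 8.60 in SSC arrays (1.67 ± 0.22, adjusted p = 0.0056). Dlgap5, a spindle microtubule protein, had 10.52 and 10.29 in mSSC, 8.89 and 8.61 in iSSC, and 9.11 and 8.97 in SSC (1.37 ± 0.22 for mSSC against SSC, adjusted p = 0.010). Aspm, a protein of spindle poles, and Cdc27, a subunit of the anaphase-promoting complex, were the 2 that fell in iSSC against SSC, by 1.96 (adjusted p = 0.033) and 1.60 (adjusted p = 0.033). Aspm had 10.64 and 10.03 in mSSC, 8.02 and 8.23 in iSSC, and 10.24 and 9.93 in SSC, so that it was low in iSSC alone, as Ndc80 was.

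DNA replication genes, transcribed earlier in the cycle, had 17 of 41 higher in mSSC than in SSC, 0 lower, and a median of 0.88. The shares of all genes were 8.22% higher and 10.6% lower. Gins2, a subunit of the replicative helicase, had 11.07 and 10.94 in mSSC arrays, 9.30 and 9.12 in iSSC arrays, and 8.34 and 8.56 in SSC arrays. Against iSSC 6 of the 41 were higher and 0 lower, with a median of 0.31, against 7.53% and 9.6% of all genes. Pola1, the catalytic subunit of DNA polymerase alpha, shared the order of Hmmr, with 10.10 and 10.19 in mSSC, 6.51 and 6.66 in iSSC, and 8.19 and 8.66 in SSC. It was the 1 replication gene called lower in iSSC than in SSC (-1.84 ± 0.24, adjusted p = 0.029). That count was near the 1.87% of all genes called lower there. Whether the lists differ from each other was not tested.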

How the data were processed

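RNA of 6 cultured mouse cell samples, 2 each of mSSC, iSSC and SSC, was measured on Affymetrix arrays. Per the labels' protocols, Trizol-extracted total RNA was amplified and biotin-labelled with NuGEN kits. The authors deposited log2 signals made with RMA, a method of background correction, quantile normalization and probe set summary, per the submitters' processing notes; the sources used here give no RMA version. Quantile normalization sets the arrays to 1 distribution, so a shift of all RNA is not visible. Of 45101 probe sets 34958 had exactly 1 symbol, and 18194 genes were tested with no filter. Among the main probe sets of the 43 genes 5 end in _x_at and 3 in _s_at, which can match more than 1 transcript.

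Groups were compared across all genes with limma 3.58.1 in R 4.3.3 (group means model over 6 arrays, moderated variances, 2-sided, Benjamini-Hochberg adjusted p under 0.05). The fit was tested on simulated data. All 44 genes could be named, and of the other gene lists up to 4 called genes with the smallest p per comparison, and of marker lists the 2 brightest. Alternatives were a replicate block, fits on 4 arrays, a trended robust variance, the brighter genes alone, renormalization, centring, averaged probe sets and leaving out each array; a fit with the gene span trend removed was added after seeing the data. The members and lists were chosen with earlier results of these data known. The number of arrays limits the precision.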

Additional observations from a re-analysis of the deposited data

How the results depend on the processing

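The counts and medians of the mitosis genes were recomputed under 13 planned settings and 1 added after seeing the data, the removal of a trend on gene span. Of 28 gene calls 0 changed sign in any setting. In mSSC against SSC the count of higher genes stayed between 10 and 17 in the settings that kept all arrays of both kinds; over the fits without 1 array it ran from 7 to 24, that of lower genes from 0 to 2, and the median from 0.45 to 1.26. In iSSC against SSC, where 2 genes were lower, the count was 0 with the replicate block, 0 centred on the array median, 0 with probe sets averaged, 1 with a trended robust variance, 1 quantile normalized again and 1 with the span trend removed. Without 1 array it ran from 0 to 3 for lower and from 0 to 3 for higher genes, with medians from 0.073 to 0.64. In mSSC against iSSC 20 genes were higher in a fit on only the 4 arrays of these kinds, which called 3724 of all genes, against 3117 in the main fit. Without 1 array the medians ran from 0.67 to 1.15. The count and the calls over all genes both fell without either iSSC array or mSSC replicate 1. The causes were not tested. Centring moved the median of all genes from 0.08 to 0.33 for mSSC against SSC and from -0.01 to 0.18 against iSSC; the medians of the mitosis genes were then 1.07 and 1.15. Same-numbered arrays share only a number: their deviations correlated at 0.07 to 0.17 between kinds. With the number as a replicate block 12 genes were higher in mSSC than in SSC and 13 than in iSSC. Where an array was left out, the lone array was assumed to vary like the other kinds. Leaving out either array of the kind not compared gave the same values as the fit on 4 arrays. Those fits are therefore not separate checks.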
